A study of Mus musculus with 8 samples.

Results

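Interferon-stimulated genes are the genes that a cell switches on when it senses interferon or foreign nucleic acid, and 43 of them were followed here across Thy1+ and cKit+ spermatogonia of mice labelled PRC1ctrl (control) or PRC1dKO (dKO). They were given as a list of 44 symbols, of which 43 are among the 23343 gene symbols of the deposited tables and Ifi27 is not listed. The list was set up because Oasl2 and Cd274 were lower in Thy1 dKO than in Thy1 control. Values of the 43 genes in that comparison are therefore given as a description, with no test.

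The libraries came from testes of C57BL/6 mice at postnatal day 7, and each pairing of population (Thy1 or cKit) and genotype (control or dKO) had 2 libraries, 4 groups in all. Thy1 is a surface marker of the undifferentiated pool, and Kit appears as spermatogonia start to differentiate. PRC1, Polycomb repressive complex 1, silences developmental genes and places ubiquitin on histone H2A. The labels do not name the deleted alleles, the driver of any deletion or what the controls carry. Nor do they say whether animals were pooled or whether replicates came from different animals, so p-values measure only the spread between these libraries, which may be technical.

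Type I and type III interferons signal through the kinases Jak1 and Tyk2 to a complex that holds Stat2 and Irf9 and binds the interferon-stimulated response element (ISRE) in promoters. Interferon gamma acts on promoters through the gamma-activated site (GAS). The induced genes include sensors of viral RNA, enzymes that degrade or block it, membrane proteins that stop viral entry, and the antigen processing machinery, and several of them, such as the Ifitm genes, are also expressed in germ cells without infection.

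Promoters of the RefSeq table (GRCm38.p6, 250 bases before to 50 bases after a start) were found for 34 of the 43 genes. The ISRE core, written here as GAAA, 2 bases of any kind and GAAA again, read on both strands, was in 17 of these 34, against 3.99% of 27025 symbols. The GAS letters TTCNNNGAA were in 9 of the 34, or 26.5%, against 9.55% of symbols. A match is a run of letters and not a measured site. The 200 bases before the start are shown for the 2 genes that set up the list, which had no ISRE core in the whole window. They are also shown for 3 genes that rose in cKit dKO, each of which held a match. Ifit2 and Ifitm1, which rose as well, had no match and are not shown. The ISRE core letters are in capitals, and each sequence is read 5′ to 3′ on the strand of the gene. The GAS match of Bst2 overlapped its first ISRE match, and the ISRE matches of Bst2 and of Gbp3 overlapped one another.
Oasl2, chr5:114896734-114896933, plus strand: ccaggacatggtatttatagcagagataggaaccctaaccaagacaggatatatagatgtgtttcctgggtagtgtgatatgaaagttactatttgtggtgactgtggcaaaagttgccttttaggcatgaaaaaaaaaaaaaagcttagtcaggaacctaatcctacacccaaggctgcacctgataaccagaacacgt
Cd274, chr19:29367238-29367437, plus strand: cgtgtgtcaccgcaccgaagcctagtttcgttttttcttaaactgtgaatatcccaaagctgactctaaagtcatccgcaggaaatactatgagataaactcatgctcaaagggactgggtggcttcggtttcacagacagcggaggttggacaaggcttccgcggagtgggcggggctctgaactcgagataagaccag
Bst2, chr8:71537473-71537672, minus strand: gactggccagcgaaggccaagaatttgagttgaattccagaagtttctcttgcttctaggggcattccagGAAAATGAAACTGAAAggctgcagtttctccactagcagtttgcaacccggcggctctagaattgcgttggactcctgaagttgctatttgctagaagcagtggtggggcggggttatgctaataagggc
Ifitm2, chr7:140955962-140956161, minus strand: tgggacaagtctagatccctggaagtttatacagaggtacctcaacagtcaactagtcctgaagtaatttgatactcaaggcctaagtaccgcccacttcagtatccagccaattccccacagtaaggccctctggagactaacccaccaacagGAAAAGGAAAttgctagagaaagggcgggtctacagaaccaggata
Gbp3, chr3:142559844-142560043, plus strand: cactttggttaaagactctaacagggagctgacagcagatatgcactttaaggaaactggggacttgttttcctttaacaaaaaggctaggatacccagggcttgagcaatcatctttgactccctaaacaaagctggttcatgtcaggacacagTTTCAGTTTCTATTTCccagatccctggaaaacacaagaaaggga

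Total counts ran from 6763908 to 10976869 per library, of which Rn45s, the ribosomal RNA precursor, took 8.42% to 13.6%. Whole-gene counts of the PRC1 ligases do not separate the genotypes: over all 8 libraries, Rnf2 was at 103 to 146 CPM (counts scaled to library size by TMM) and Ring1 at 2.59 to 12.01 CPM. Thy1 averaged 22 and 14.3 CPM in the Thy1 control and dKO libraries and 0.79 and 0.64 CPM in the cKit libraries, and Kit averaged 309 and 296 CPM against 994 and 1035 CPM. Kit was 1 of 5 markers of the cKit population, with Stra8, Sohlh1, Sohlh2 and Dnmt3b. Of these 5, 3 were higher in control cKit than in control Thy1 and 0 lower (edgeR adjusted p under 0.05). In dKO 1 was higher in cKit and 3 were lower. Against cKit control, cKit dKO had 4 of the 5 lower (median log2 fold change -1.63), beside 15.4% of all genes called lower. Libraries also held RNA of other testis cells. Summed markers of peritubular and stromal cells reached 7201 to 9858 CPM in Thy1 control, and those of Leydig cells 14980 to 17550 CPM in cKit dKO. Both exceeded the germ cell markers of the same libraries, 1787 to 2000 and 394.8 to 528.7 CPM. In such bulk libraries, fewer cells of a type and less RNA per cell cannot be told apart.

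As a group the genes were weakly expressed. Their share of all counts was 0.11% and 0.0902% in the Thy1 control libraries and 0.0785% and 0.0849% in those of Thy1 dKO. The cKit control libraries had 0.071% and 0.0795%, and the cKit dKO libraries 0.0779% and 0.0857%. The highest share was thus in Thy1 control replicate 1. Per length, 27 of the 43 had a mean under 1 in the deposited RPKM (reads per kilobase of transcript, scaled to the reads of the library), and the median over genes was 0.625 RPKM. A filter on low counts left 37 genes for the fits. The other 6 had 12 to 58 counts over all libraries together. They were Oas1a, Oas1b and Oas1g, of the oligoadenylate synthetase family, Ifit3, an effector of the Ifit family, Isg15, a ubiquitin-like modifier, and Mx1, an antiviral GTPase. The textbook markers of an interferon response, Isg15 and Ifit3, never exceeded 18 and 33 counts in a library.

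By mean RPKM over all libraries, the 4 genes at the top were Ifitm2, Ifitm3, Trim25 and Irf1. Ifitm2, which encodes a membrane protein that restricts viral entry, averaged 82.3 RPKM in the Thy1 controls, 69.1 RPKM in Thy1 dKO, 33.0 RPKM in the cKit controls and 43.6 RPKM in cKit dKO. Ifitm3, of the same gene cluster, averaged 68.0, 33.5, 9.95 and 12.2 RPKM in the same order. Trim25, the ubiquitin ligase that assists the RNA sensor Ddx58, averaged 8.55 and 9.08 RPKM in the Thy1 groups and 16.3 and 13.9 RPKM in the cKit groups. Irf1, a transcription factor of the interferon response, averaged 9.38 and 8.86 RPKM against 16.0 and 12.4 RPKM. The Ifitm genes were thus highest in the Thy1 groups, and Trim25 and Irf1 in the cKit groups.

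**Figure D1:**
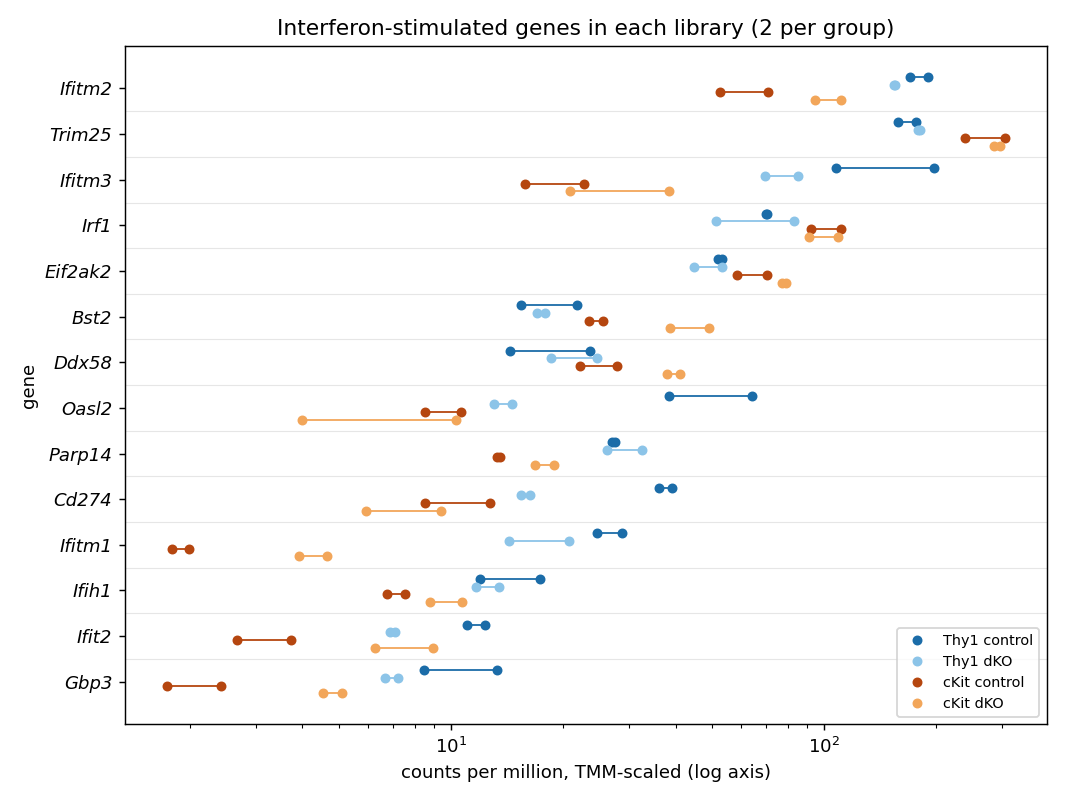
CPM (log axis) of named interferon-stimulated genes in each of the 8 libraries, by group, with points for libraries. Oasl2 and Cd274 sit at 36.2 CPM or above in both Thy1 control libraries and at 16.3 CPM or below in the other 6.

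Oasl2 and Cd274 were high in Thy1 control alone. Oasl2 (chr5:114896934-114912245 in mm10), an oligoadenylate synthetase-like protein, was at 64.2 and 38.5 CPM in the Thy1 control libraries and at 13.1 and 14.6 CPM in Thy1 dKO. In the cKit libraries it was at 10.6 and 8.55 CPM in control and at 4.002 and 10.4 CPM in dKO. The Thy1 groups did not overlap, and the cKit groups did. Cd274 (chr19:29367438-29388094), the checkpoint ligand PD-L1, which interferon gamma induces, was at 39.2 and 36.2 CPM in Thy1 control and at 15.4 and 16.3 CPM in Thy1 dKO. It was at 12.7 and 8.55 CPM in cKit control and at 5.92 and 9.41 CPM in cKit dKO. The fitted log2 fold changes in Thy1 dKO were -1.89 for Oasl2 and -1.25 for Cd274, and these are the values that set up the list.

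Across the list, Thy1 dKO was lower for 31 of the 43 genes by group mean and higher for 12. That Oasl2 and Cd274 were the 2 of 37 fitted genes past the threshold used for calls, an edgeR adjusted p of 0.05, restates how the list was set up, and nothing is read from it beside the 0.624% of all 14907 fitted genes that passed (0.262% were lower). The median log2 fold change was -0.18 over the 37 and -0.13 over the 35 without Oasl2 and Cd274, beside 0.03 over all fitted genes. Both dKO libraries lay under both control libraries for 11 of the 37, or 9 of the 35 (22.8% of all genes), and above them for 3 (28.5% of all genes). The 11 genes were Oasl1, Oasl2, Oas2, Ifit2, Rsad2, Ifitm1, Ifitm2, Ifitm3, Gbp3, Cd274 and Ifi44. The 3 were the exonuclease gene Isg20, the RNA helicase gene Dhx58 and Trim25.

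Other interferon pathway genes, from the lists described with cKit dKO, had medians of either sign in Thy1 dKO. The median log2 fold change was 0.08 over 30 fitted further interferon-stimulated genes, of which 17 lay above 0. It was 0.19 over 16 genes of nucleic acid sensing, 0.18 over 12 receptor and kinase genes, 0.07 over 12 genes of class I presentation and -0.39 over 8 genes that clear nucleic acids. Of the 78 pathway genes fitted, 2 were called higher in Thy1 dKO and 0 lower, beside 0.362% and 0.262% of all genes. Irf8 was 1 of them (0.94, edgeR adjusted p = 0.029), and Helz2 had a value of 0.78.

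Few genes carried the drop in total. The 43 genes summed to 1078 and 885 CPM in Thy1 control and to 773.7 and 824.3 CPM in Thy1 dKO, a difference of 182.5 CPM between the means. Ifitm3 made up 41.0% of it, Oasl2 20.6%, Ifitm2 14.3% and Cd274 11.9%. Ifitm3 was at 196.7 and 107.6 CPM in Thy1 control and at 69.5 and 85.1 CPM in Thy1 dKO, without overlap but with its control libraries far apart. By role, the median log2 fold change was -0.61 for the 5 OAS family genes, -0.23 for 13 antiviral effectors, -0.06 for 11 sensors and regulators, 0.00 for 4 genes of antigen processing and checkpoint and -0.47 for 4 others.

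One control library weighed on these medians. In Thy1 control replicate 1, 38 of the 43 genes were higher than in replicate 2, against 50.9% of all fitted genes. In the other groups replicate 1 was the higher for 18 (Thy1 dKO), 24 (cKit control) and 20 genes (cKit dKO). Without Thy1 control replicate 1 the median over the list in Thy1 dKO was 0.03, and the log2 ratio of the summed levels went from -0.30 to -0.15. Oasl2 and Cd274 remained lower by group, since control replicate 2 alone exceeded both dKO libraries. Marker lists of cell types differed between the Thy1 groups as well, and none of those named next had a marker at 0. Germ cell markers summed to 1787 to 2000 CPM in control and 1515 to 1678 CPM in dKO, with 9 of 10 below 0 and 1 called lower. Macrophage markers summed to 950.8 to 1077 CPM and 1305 to 1456 CPM, with 10 of 10 above 0 and 0 called. T and B cell markers summed to 26.41 to 32.22 CPM and 38.8 to 45.72 CPM, with 5 of 5 fitted above 0 and 0 called. Endothelial (305.4 to 307.4 against 444.9 to 466.7 CPM), Leydig (2468 to 3085 against 3620 to 4065 CPM) and Sertoli markers (336.7 to 338.7 against 437.8 to 469.1 CPM) each had 1 called higher. Their part in the values of the interferon-stimulated genes was not tested.

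**Figure D2:**
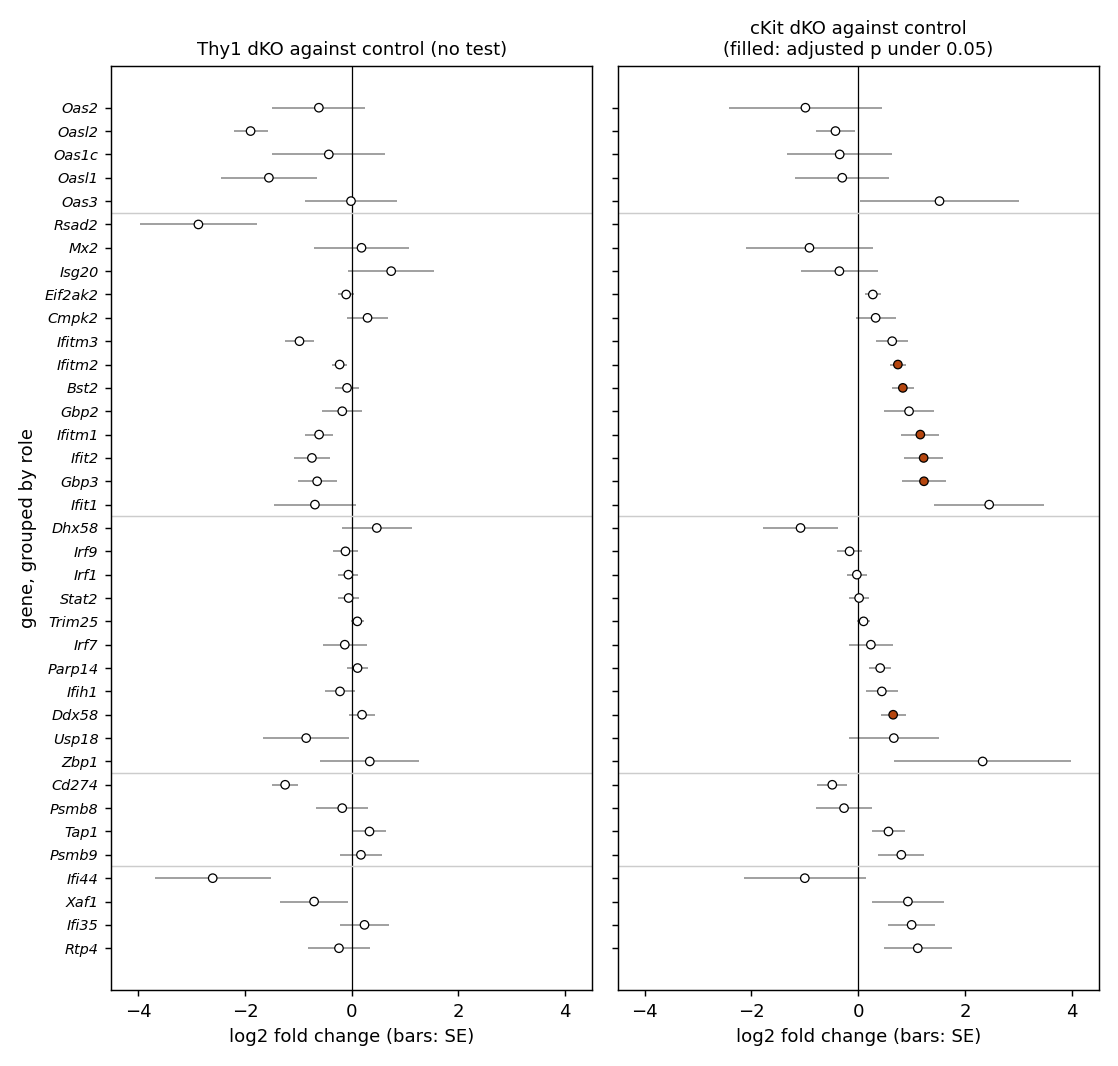
Log2 fold change of dKO against control (x axis, bars are standard errors) for the 37 fitted genes grouped by role, in Thy1 (left, no test) and cKit (right, filled points have an adjusted p under 0.05). Rsad2 is left out on the right because both cKit dKO libraries had 0 counts. The 6 filled points lie between 0.66 and 1.23, and Oasl2 and Cd274 are left of 0 in both panels.

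In cKit cells, whose comparison the choice of the list did not use, 6 of the 37 genes rose in dKO and 0 fell by the quasi-likelihood test of edgeR, adjusted over all genes after Benjamini and Hochberg. Over all 14907 genes, 28.6% were called, 13.2% higher and 15.4% lower, so the share that rose was near the background. The unadjusted p was under 0.05 for 9 of the 37, beside 39.9% of all genes. The genes that rose were 5 antiviral effectors, Ifitm2, Bst2, Ifit2, Ifitm1 and Gbp3, and the sensor Ddx58. None of the 5 OAS family genes, the 4 genes of antigen processing and checkpoint or the 4 others passed the test.

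Bst2 (chr8:71534262-71537437), tetherin, which holds budding virus at the cell surface, was at 25.6 and 23.5 CPM in cKit control and at 38.6 and 49.2 CPM in cKit dKO. It rose by 0.84 ± 0.21 on the log2 scale (SE, edgeR adjusted p = 0.0076). In Thy1 cells it stood at 21.8 and 15.4 CPM in control and at 17.9 and 17.0 CPM in dKO. Both cKit dKO libraries were thus its highest of all 8, while the Thy1 groups overlapped.

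Ifitm2 (chr7:140954839-140955961) rose from 52.6 and 70.8 CPM to 94.6 and 111 CPM, which is 0.74 ± 0.15 on the log2 scale (SE, edgeR adjusted p = 0.0017). Both cKit dKO libraries stayed under the 153.7 to 190.1 CPM of the Thy1 libraries. Ifitm1 (chr7:140967429-140969827), of the same family and cluster, rose from 1.99 and 1.79 CPM to 4.64 and 3.92 CPM, by 1.16 ± 0.36 (SE, edgeR adjusted p = 0.024). Its Thy1 libraries were at 28.7 and 24.6 CPM in control and at 14.3 and 20.7 CPM in dKO. Ifitm3 (chr7:141009590-141010744), at 15.8 and 22.7 CPM in control and 20.8 and 38.4 CPM in dKO, overlapped between cKit groups and did not pass (0.64 ± 0.30, edgeR adjusted p = 0.13). Ifitm genes are close paralogs, so the counting could have split their reads.

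Ifit2 (chr19:34550694-34576534), which binds viral RNA and blocks its translation, rose from 3.72 and 2.68 CPM to 6.24 and 8.94 CPM, by 1.23 ± 0.36 on the log2 scale (SE, edgeR adjusted p = 0.019). Gbp3 (chr3:142560052-142573212), a guanylate-binding GTPase that interferon gamma induces, rose from 1.73 and 2.42 CPM to 5.12 and 4.55 CPM, by 1.23 ± 0.42 (SE, edgeR adjusted p = 0.039). Its close relative Gbp2, at 1.73 and 1.79 CPM in control and 4.80 and 2.04 CPM in dKO, did not pass (0.95 ± 0.47, edgeR adjusted p = 0.14). Ddx58 (chr4:40203777-40239825), the RNA sensor RIG-I, was at 27.8 and 22.2 CPM in control and at 37.9 and 41.1 CPM in dKO, higher by 0.66 ± 0.23 (SE, edgeR adjusted p = 0.048). In each of these 3 genes that rose, both cKit dKO libraries were above both cKit controls. Ifit2 and Gbp3 stayed under 13.3 CPM in all 8 libraries, near the level where few counts set the precision. The same limit holds for Ifitm1 in the cKit libraries, with 23 and 14 counts in control and 29 and 25 in dKO.

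The 2 genes that set up the list did not pass in cKit dKO: the log2 change was -0.43 ± 0.36 for Oasl2 (SE, edgeR adjusted p = 0.42) and -0.49 ± 0.28 for Cd274 (SE, edgeR adjusted p = 0.21). Rsad2, viperin, an inhibitor of viral replication, had 14 counts in the cKit controls and 0 in cKit dKO, at least 3.04-fold lower if 3 counts over the 2 libraries are taken as the floor, and did not pass (edgeR adjusted p = 0.054). Stat2 and Irf9, partners in the ISRE-binding complex, had log2 fold changes of 0.02 and -0.16, and Irf1 one of -0.02, none past the test. The median over the 37 was 0.41, with 24 above 0 and 13 below, and it was the same with Rsad2 placed at its bound. Over all fitted genes the median was 0.03. With library totals as the scaling the medians were 0.27 over the 37 and -0.10 over all genes, and with limma on RPKM 0.03 and -0.20. Both dKO libraries were above both controls for 17 of the 37 (30.8% of all genes) and below them for 2 (30% of all genes), the antiviral GTPase gene Mx2 and Rsad2.

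These calls were not equally firm. Ifitm2 and Bst2 passed with each single library left out. Ddx58 was lost without Thy1 dKO replicate 1 (edgeR adjusted p = 0.060), Thy1 dKO replicate 2 (0.060), cKit control replicate 1 (0.081), cKit control replicate 2 (0.18) or cKit dKO replicate 2 (0.10). Gbp3 was lost without Thy1 control replicate 1 (0.055), Thy1 dKO replicate 1 (0.060), Thy1 dKO replicate 2 (0.062), cKit control replicate 1 (0.21) or cKit dKO replicate 1 (0.085). Ifit2 was lost without cKit control replicate 2 (0.079) or cKit dKO replicate 2 (0.095), and Ifitm1 without cKit control replicate 1 (0.090), cKit control replicate 2 (0.064) or cKit dKO replicate 1 (0.077). The count was 3 without cKit control replicate 2. Scaled by library totals in place of TMM, 4 rose (Bst2, Ifit2, Ifitm1 and Ifitm2) and Rsad2 fell, beside 8.57% of all genes higher and 20.2% lower. On the RPKM values with limma 1 gene, Ifitm1, passed.

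Markers of other cells moved with cKit dKO. Germ cell markers summed to 1288 to 1611 CPM in control and 394.8 to 528.7 CPM in dKO, and 9 of 10 fell. Peritubular and stromal markers went from 2031 to 2108 CPM up to 3472 to 4426 CPM (6 of 8 rose), and endothelial markers from 200.7 to 201.6 CPM up to 396.2 to 407.3 CPM (3 of 6 rose). Sertoli markers summed to 770 to 822.1 CPM and 1128 to 1178 CPM (3 of 7 fitted rose), Leydig markers to 10730 to 12940 CPM and 14980 to 17550 CPM (4 of 6 rose and 1 fell), and mast cell markers to 116 to 188.1 CPM and 229.6 to 278.7 CPM (2 of 5 fitted rose, with 1 of 6 at 0 in both groups). No marker of the other lists named here was at 0 in a cKit group. The part of these cells in the rise of the 6 genes was not tested. Macrophage markers did not separate the genotypes: they summed to 184.2 and 418.5 CPM in the cKit controls and 148.6 and 539.9 CPM in cKit dKO, and 0 of 10 passed. With both cKit libraries of higher macrophage sum left out, an alternative chosen after seeing the data, each cKit group held 1 library. Of the 6 genes that rose in the full fit, Ifitm2 (log2 fold change 0.88) and Gbp3 (1.59) stayed past the threshold. The other 4 were not called, with log2 fold changes of 0.63 for Bst2 (edgeR adjusted p = 0.083), 1.25 for Ifitm1 (0.053), 0.78 for Ifit2 (0.19) and 0.49 for Ddx58 (0.23). The value of Ifitm1 was no smaller than with all libraries.

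**Figure D3:**
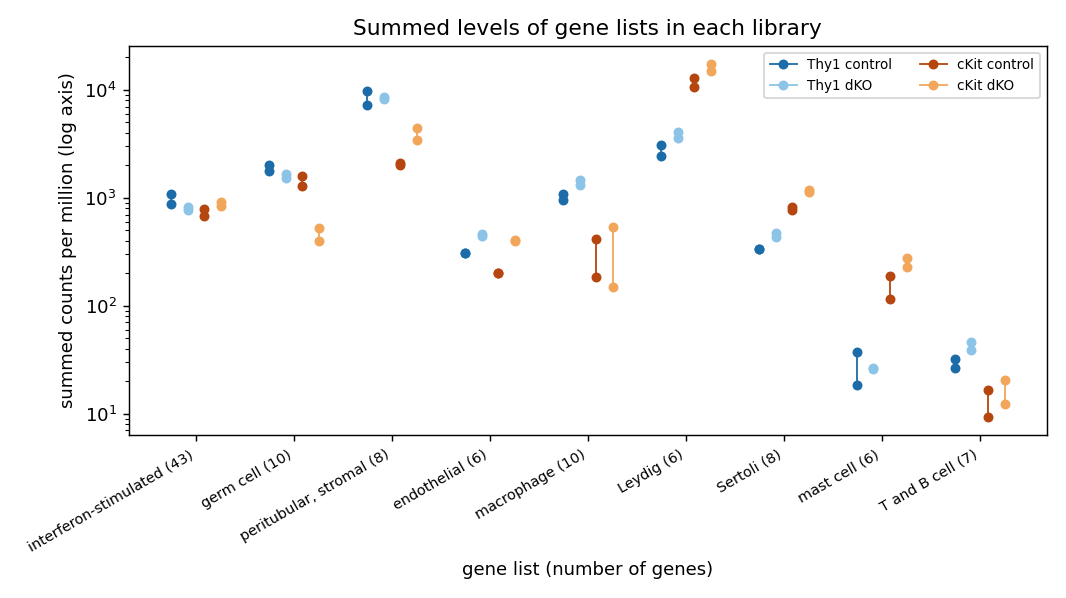
Summed CPM (log axis) per library of the interferon-stimulated genes and of cell type marker lists, by group, with 1 point per library. Germ cell markers are lowest in both cKit dKO libraries, and macrophage markers are higher in all Thy1 libraries than in any cKit library.

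The letters of the ISRE core were in the promoter window of 4 of the 6 genes that rose in cKit dKO, namely Bst2, Ifitm2 and Gbp3, printed above, and Ddx58. Ifit2 and Ifitm1 had no match in theirs. The list as a whole held the core in 17 of 34 promoters.

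Other genes of the pathway were taken from 6 lists, with 78 of 93 symbols fitted. In cKit dKO 15 rose and 5 fell, beside 13.2% and 15.4% of all genes. With library totals as the scaling 11 rose and 7 fell, beside 8.57% and 20.2% of all genes. Nothing was tested on the lists as such. Ligands were nearly silent. The 11 interferon genes in the files summed to at most 1.24 CPM in any library, none was fitted, and all 11 were at 0 in cKit dKO. Of 12 receptor, kinase and transducer genes, 2 rose and 1 fell. Ifngr2, a chain of the interferon gamma receptor, was at 32.9 and 47.0 CPM in cKit control and at 69.8 and 93.8 CPM in cKit dKO (1.04 ± 0.18, SE, edgeR adjusted p = 5.5e-04). Il10rb, shared by the receptors of type III interferons and interleukin 10, rose by 1.26, and Tyk2 fell by 0.93 on the log2 scale. The type I receptor chains Ifnar1 (0.28) and Ifnar2 (0.42) did not pass.

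Of 16 fitted genes of nucleic acid sensing, 5 rose and 0 fell. Irf8, an interferon regulatory factor best known from myeloid cells, was at 99.1 and 99.3 CPM in cKit control and at 157.7 and 224.6 CPM in cKit dKO (0.95 ± 0.16, SE, edgeR adjusted p = 5.7e-04). Ticam1, the adaptor of Tlr3, rose by 0.65. The others were the double-stranded RNA receptor Tlr3 (0.82), the DNA receptor Tlr9 (0.87) and Mb21d1 (0.81), which encodes the DNA sensor cGAS. Of 8 genes that clear nucleic acids none passed, and their median was -0.20. Class I presentation split, with 1 of 12 higher and 1 lower. B2m, the light chain of class I molecules, was at 252.8 and 299.0 CPM in cKit control and at 382.8 and 436.0 CPM in cKit dKO (0.57 ± 0.12, SE, edgeR adjusted p = 0.0031), and Psme2, a proteasome activator subunit, fell by 0.46.

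A list of 32 further interferon-stimulated genes, 30 of them fitted, had 7 that rose and 3 that fell, with a median of 0.43. Higher genes included Ly6e (0.70), an entry restriction factor, Helz2 (0.45), Pml (0.56), the organiser of nuclear bodies, and the GTPases Gbp7 (0.79) and Irgm2 (0.64). Lower genes were the helicase gene Znfx1 (-0.65), the ADP-ribosyltransferase gene Parp12 (-0.73) and the antibody receptor and ubiquitin ligase gene Trim21 (-0.73).

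In control, libraries of cells selected for Kit had lower levels of many of these transcripts than libraries of cells selected for Thy1. Oasl2 and Cd274 were left out because their choice rested on the Thy1 control libraries. Of the other 35 genes, 10 were lower in cKit and 1 was higher, against 10.3% and 9.46% of all genes (19.7% in either direction) by the same edgeR test. The list was set up from these same Thy1 control libraries, so leaving out 2 genes does not make this comparison independent of that choice. The lower ones were Oas3, Ifit1, Ifit2, Ifitm1, Ifitm2, Ifitm3, Gbp2, Gbp3, Ifih1 and Parp14, and the higher one was Trim25. Oas3 had 2 and 0 counts in the cKit control libraries, and Ifit1 had 2 and 3. Both passed the filter on low counts only through the Thy1 libraries, where they are higher, so their calls carry no weight of their own. The median was -1.03 over the 35 and 0.01 over all genes. Both cKit libraries were below both Thy1 libraries for 16 (29.8% of all genes) and above them for 8 (29.9% of all genes). Of the 10 lower genes 9 had a promoter window, and 7 of these held the ISRE core, Oas3 and Ifit1 among them.

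The 3 Ifitm genes differed between the populations by different amounts. Against the CPM values given above, the log2 fold change of control cKit over Thy1 was -3.80 ± 0.32 for Ifitm1 (SE, edgeR adjusted p = 6.0e-07). For Ifitm3 it was -2.99 ± 0.29 (SE, edgeR adjusted p = 2.8e-06), and for Ifitm2 -1.55 ± 0.15 (SE, edgeR adjusted p = 2.0e-06). In each, all cKit libraries were below all Thy1 libraries of either genotype.

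Ifih1 (chr2:62595793-62646255), the RNA sensor MDA5, was at 17.4 and 11.97 CPM in Thy1 control and at 7.53 and 6.76 CPM in cKit control (-1.03 ± 0.29, SE, edgeR adjusted p = 0.020). Parp14 (chr16:35832878-35871382), an ADP-ribosyltransferase, was at 27.5 and 27.0 CPM against 13.5 and 13.3 CPM (-1.02 ± 0.20, SE, edgeR adjusted p = 0.0021). Trim25 (chr11:88999403-89020293) went the other way, from 157.9 and 176.0 CPM in Thy1 control to 238.1 and 304.8 CPM in cKit control (0.70 ± 0.13, SE, edgeR adjusted p = 8.5e-04). The groups did not overlap for any of the 3. Ifih1 was lost without Thy1 control replicate 1 (edgeR adjusted p = 0.22), cKit control replicate 1 (0.064) or cKit control replicate 2 (0.098). Without Thy1 control replicate 1 the number of calls was 8, and the median over all 37 fitted genes went from -1.10 to -0.27.

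Somatic markers differed between these populations too. Macrophage markers summed to 950.8 to 1077 CPM in Thy1 control and to 184.2 to 418.5 CPM in cKit control, with 8 of 10 lower, and peritubular and stromal markers to 7201 to 9858 against 2031 to 2108 CPM, with 8 of 8 lower. Leydig markers were the reverse, with 6 of 6 higher in cKit, and mast cell markers had 5 of 5 fitted higher. Their part in the differences of the interferon-stimulated genes was not tested.

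In dKO the same comparison had 5 genes higher in cKit and 5 lower of the 35, against 14.8% and 20% of all genes (34.8% in either direction) by edgeR. Higher were Bst2, Trim25, Eif2ak2, Ddx58 and Irf1, and lower were Ifitm1, Ifitm2, Ifitm3, Gbp2 and Parp14. The median log2 fold change was -0.05 over the 35 and -0.08 over all genes. Both cKit libraries were above both Thy1 libraries for 9 (29.3% of all genes) and below them for 14 (38.2% of all genes). The Thy1 dKO libraries also served in setting up the list, so this comparison is not independent of that choice either.

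Bst2 was higher in cKit dKO than in Thy1 dKO by 1.33 ± 0.22 on the log2 scale (SE, edgeR adjusted p = 2.5e-04), from the libraries given above. Eif2ak2 (chr17:78852550-78882572), the kinase PKR, which stops translation on double-stranded RNA, was at 53.3 and 44.8 CPM in Thy1 dKO and at 78.9 and 77.0 CPM in cKit dKO (0.67 ± 0.15, SE, edgeR adjusted p = 0.0027). Irf1 (chr11:53770014-53778374) was at 51.2 and 83.3 CPM in Thy1 dKO, a wide spread, and at 90.9 and 109.0 CPM in cKit dKO (0.58 ± 0.19, SE, edgeR adjusted p = 0.027). Trim25, at 180.6 and 178.7 CPM against 285.6 and 296.3 CPM, differed by 0.70 ± 0.13 (SE, edgeR adjusted p = 6.0e-04). All 4 had cKit dKO libraries above those of Thy1 dKO.

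Ifitm1 was lower in cKit dKO by 2.02 ± 0.30 on the log2 scale (SE, edgeR adjusted p = 1.2e-04), Ifitm3 by 1.38 ± 0.29 (SE, edgeR adjusted p = 0.0017) and Ifitm2 by 0.58 ± 0.14 (SE, edgeR adjusted p = 0.0056). For the 2 genes left out, the log2 fold changes of cKit over Thy1 were -2.41 in control and -0.94 in dKO for Oasl2, and -1.81 and -1.05 for Cd274. Single libraries decided some calls here. Ddx58 was lost without Thy1 dKO replicate 2 (edgeR adjusted p = 0.12), as was Eif2ak2 (0.055), while Ifitm2 was lost without cKit dKO replicate 1 (0.091) and Irf1 without Thy1 dKO replicate 1 (0.36) or cKit dKO replicate 2 (0.083). Macrophage markers were lower in cKit dKO than in Thy1 dKO for 8 of 10, and peritubular and stromal markers for 7 of 8.

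**Figure D4:**
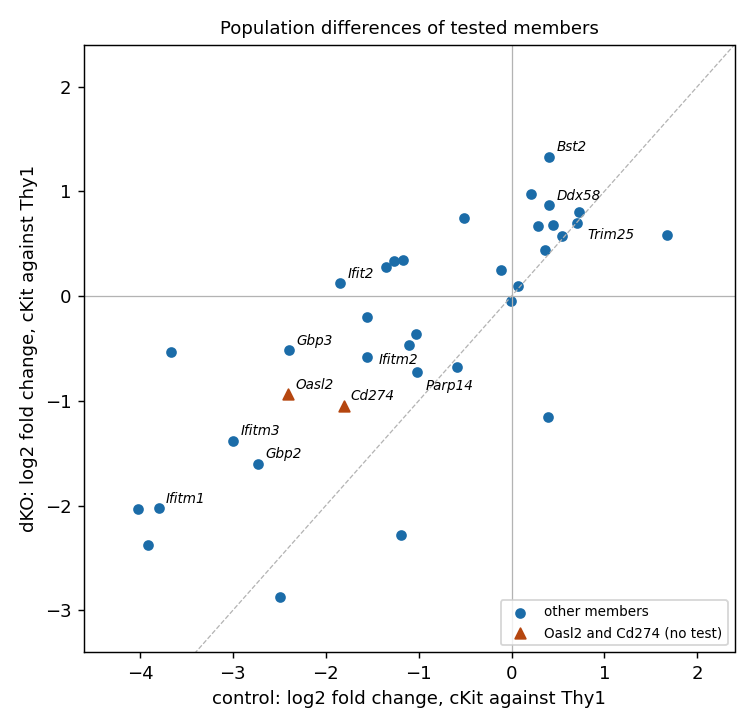
Log2 fold change of cKit against Thy1 in control (x axis) and in dKO (y axis) for the fitted interferon-stimulated genes, with the diagonal of equal values dashed; Rsad2 is left out because both cKit dKO libraries had 0 counts. Ifitm1 lies at -3.80 and -2.02, and Bst2 at 1.33 on the y axis.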

How the data were processed

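RNA was measured in 8 libraries, 2 per group. The genome was mm10 and the aligner STAR 2.4.2a, per the submitters' processing notes. The counting tool and its strand setting are not given in the sources used here, so overlapping and antisense genes could share reads. By coordinates, none of the 43 genes overlapped another gene of the deposited tables. Pathway and marker genes were not searched for overlaps. The deposited counts are whole numbers per RefSeq entry (26099 entries) with no normalization, per the file headers. The second column holds RPKM, scaled by the authors to transcript length and reads, per the file headers. Counts were summed per symbol (7 of the 43 genes have several entries). All 8 libraries entered 1 edgeR 4.0.16 fit in R 4.3.3 (filterByExpr, TMM, glmQLFit, 4 residual degrees of freedom, two-sided, adjusted over 14907 genes, threshold 0.05), which was tested on simulated data. CPM use TMM-scaled sizes, and 3 counts are worth 0.26 to 0.48 CPM per library. Amplified libraries without molecular identifiers make such floors cover counting error only. Replicates differed beyond counting error (chi-square over degrees of freedom 4.42 to 13.4).

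The genes, lists and tests were chosen with earlier results of these data known. Values per library are given for Oasl2 and Cd274, for called genes whose mean log2 CPM reached 2 (for the populations the 6 highest) and for the 4 of highest RPKM; pathway genes are the called ones, at most 12 by level, and genes outside this were named after their values were seen. Alternatives were library totals, DESeq2 1.42.0, no filter, the entry of most counts, fits on 4 libraries, limma 3.58.1 on log2(RPKM + 0.5), a scale that understates changes of low genes, a replicate block and each library left out.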

Additional observations from a re-analysis of the deposited data

Results flagged for a closer look

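For 4 interferon-stimulated genes the dKO difference had opposite signs in the populations, with both dKO libraries above both controls in cKit and below both controls in Thy1, beside 2.7% of all fitted genes with that pattern. The log2 fold changes in cKit and in Thy1 were 1.23 and -0.74 for Ifit2, 1.16 and -0.61 for Ifitm1, 0.74 and -0.23 for Ifitm2, and 1.23 and -0.65 for Gbp3. Standard errors of the Thy1 values were 0.33, 0.26, 0.14 and 0.36 in the same order. The reverse pattern, lower in cKit and higher in Thy1, was seen for 0 genes of the list, beside 3.92% of all fitted genes. The Thy1 values took part in the choice of the list. Nothing is therefore read from these shares, and the difference between the populations was not tested.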

How the results depend on the processing

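In cKit dKO the number of interferon-stimulated genes called was 6, and it was 3 when the 4 cKit libraries were fitted alone (28 of the genes passed the filter there), 1 with limma on log2(RPKM + 0.5), and 3 to 8 with single libraries left out. Library totals gave 5, DESeq2 6, no filter 9 and the entry of most counts 4. Over all genes the full fit called 4259, the fit of 4 libraries 3148, limma 4479 and library totals 4285. DESeq2 called 4054, no filter 4725 and the entry of most counts 3404. In control, cKit against Thy1 gave 11 calls, 8 to 14 with single libraries left out and 13 (5 higher, 8 lower) with limma. In dKO it gave 10 calls, and 7 to 11 with single libraries left out. The log2 ratio of the summed levels in Thy1 dKO was -0.30, and ran from -0.43 to -0.15 with single libraries left out. With the replicate number as a block, the calls were 6, 12 and 10 in the same order of comparisons. Over all genes that block gave 4217, 2958 and 5127 calls, and the full fit 4259, 2939 and 5190. Limma called 3418 of all genes for cKit against Thy1 in control. Libraries of equal number showed no shared deviation between groups (correlations from -0.0453 to 0.0522). That does not settle whether they share an origin, which the labels do not give. Of 288 alternatives of the named tested values, 242 stayed past the threshold, 46 lost it and 0 reversed. Of 32 for Oasl2 and Cd274 in Thy1 dKO, given without a test, 31 moved by less than the spread between replicates and 1 by more (Cd274, -0.9997 with limma). The cause of these changes was not tested. Where an arm had 1 library left, it was assumed to vary like the other groups. Most of the genes are at few counts, which limits what 2 libraries per group can show.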
